A study of Mus musculus with 1152 samples.

Results

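Retinoic acid is made from vitamin A in the cells that need it or beside them, and in the brain the meninges are among its known sources. The vitamin travels in blood bound to the carrier Rbp4, enters cells through the receptor Stra6, and is oxidised first to retinaldehyde, by enzymes such as Rdh10, and then to retinoic acid by the retinaldehyde dehydrogenases Aldh1a1, Aldh1a2 and Aldh1a3. Dhrs3 runs the first step backwards, from retinaldehyde to retinol, and the small proteins Crabp1 and Crabp2 bind retinoic acid inside the cell. These 9 genes were described here, of 46517 in the count table. They were chosen by name as genes of retinoic acid synthesis and binding, and all 9 were found in the table.

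The data are read counts made with SMART-seq2, in which full-length cDNA is amplified from a cell sorted into each well of a plate, from fluorescent cells of adult C57BL/6 mouse brain. Both sexes were used, and the cells came from 2 lines, Pdgfra-H2BGFP and Tagl-CREERT2;Ai14, the first with a nuclear green protein that follows Pdgfra, which both fibroblasts and precursors of oligodendrocytes use, and the second with a red protein switched on by a recombinase that tamoxifen activates. Vascular fragments had been taken with beads against CD31, an endothelial surface protein, so every class below passed through that step. The labels tie no well to a line, an animal or a plate, so the 1152 wells were treated as 1 sample. Well names place 384 each in the sets 1025s_182s, 600s_182s and 613s. Wells are not replicates, no test was made from them, and no difference below has a replicate check.

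The 857 wells with at least 50000 reads were classed by gates, each needing at least 3 markers of a list at 100 CPM (counts per 1000000 reads) or more. The fibroblast gate, on matrix genes such as Dcn and Col1a1, held 131 wells. These were split at 100 CPM of Slc6a13, the gene of a membrane transporter for GABA, into 39 Slc6a13-high and 92 Slc6a13-low wells. The gates for endothelial or mural cells (pericytes and smooth muscle) gave 66 vessel wells, and those for the oligodendrocyte lineage gave 628 wells. Of the vessel wells 39 passed the endothelial gate only, 24 both gates and 3 the mural gate only. Levels of the vessel class therefore describe mainly endothelial wells and say little of mural cells alone. A further 13 wells passed a choroid plexus gate and 19 passed none. The gate for mature oligodendrocytes was also passed by 30 of the 66 vessel and 7 of the 13 choroid plexus wells. Pdgfrb, the gene of a receptor of fibroblasts and mural cells, was not a gate gene. It stood at 677 CPM in the fibroblast wells, 111 CPM in the vessel wells and 2.76 CPM in the oligodendrocyte lineage wells. Of the fibroblast wells, 80 also passed the gate of another class, among them 58 that passed the gate for mature oligodendrocytes. Levels on the fibroblast sides are therefore given below also for the 51 that passed the fibroblast gate alone. At the edge of the gate, 30 wells had exactly 3 fibroblast markers and 27 wells, outside it, exactly 2. At the edge of the split the nearest wells had 118 CPM of Slc6a13 on the high side and 95.9 CPM on the low side, and 66 fibroblast wells had none.

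Counts were summed over the wells of a class and scaled to CPM, 1 CPM was added, and classes were compared as log2 ratios. A call of higher or lower needed a 2-fold ratio and 10 CPM in the higher class. Such a call describes size only. Intervals are exact Poisson 95% intervals of counting error, which do not cover the differences between cells or animals. The lowest well was at 0 for each of the 9 genes in each of the Slc6a13-high, Slc6a13-low, vessel and oligodendrocyte lineage classes, so the ranges of wells overlapped throughout and the medians and shares of wells carry the comparison.

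**Figure D1:**
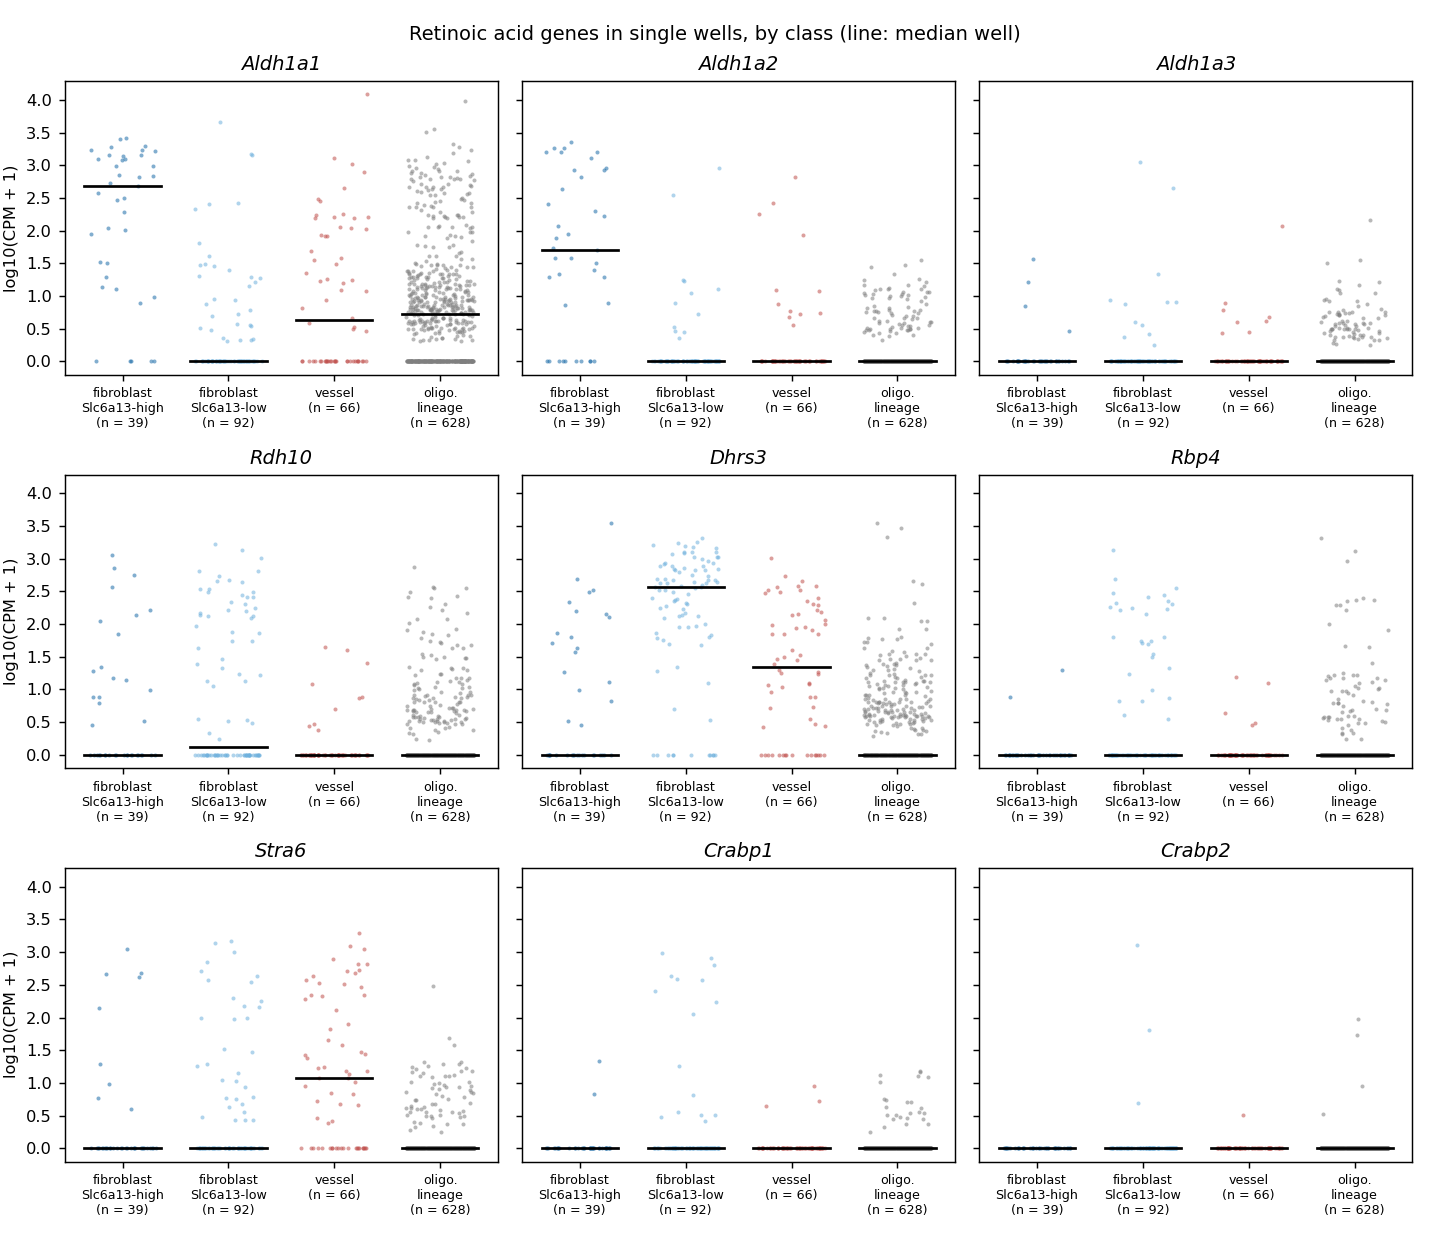
Each point is a well, with log10(CPM + 1) on the y axis and the 4 classes on the x axis, and the black line is the median well. Aldh1a1 and Aldh1a2 have medians above 0 in the Slc6a13-high wells, Dhrs3 has its highest median in the Slc6a13-low wells, and Stra6 in the vessel wells.

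The retinaldehyde dehydrogenases Aldh1a1 and Aldh1a2 lay mainly on the Slc6a13-high side of the fibroblast wells. Aldh1a1 ranged from 0 to 2653 CPM with a median of 476 CPM in the 39 Slc6a13-high wells, and from 0 to 4603 CPM with a median of 0 in the 92 Slc6a13-low wells. At 10 CPM or more it was found in 32 of the 39 Slc6a13-high wells and 17 of the 92 Slc6a13-low wells. The pooled level was 815 CPM (795 to 834) in Slc6a13-high and 43.4 CPM (41.1 to 45.8) in Slc6a13-low wells, a log2 ratio of 4.20. On the low side 1 well held 46.0% of the Aldh1a1 reads, and the level without it was 23.6 CPM. Among wells that passed the fibroblast gate alone the contrast was wider, at 1208 CPM in 13 Slc6a13-high wells and 0.917 CPM in 38 Slc6a13-low wells.

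Aldh1a2, the dehydrogenase best known for supplying retinoic acid in the embryo and from the meninges, lay on the same side. Its wells ranged from 0 to 2278 CPM with a median of 49.4 CPM on the Slc6a13-high side, and from 0 to 904 CPM with a median of 0 on the Slc6a13-low side. It reached 10 CPM in 27 of 39 Slc6a13-high and 6 of 92 Slc6a13-low wells. The pooled levels were 580 CPM (564 to 597) in Slc6a13-high and 17.6 CPM (16.1 to 19.2) in Slc6a13-low wells, a log2 ratio of 4.97. Of the reads on the low side, 96.8% came from 2 wells. With the fibroblast gate alone the levels were 1060 CPM in 13 Slc6a13-high wells and 11.4 CPM in 38 Slc6a13-low wells. Of the reads of those Slc6a13-low wells 98.1% came from 1 well. After thinning each well to 50000 reads, Aldh1a2 was detected in 66.7% of Slc6a13-high wells (49.8 to 80.9, exact Clopper-Pearson) and 4.35% of Slc6a13-low wells (1.20 to 10.8). The share in oligodendrocyte lineage wells, 4.46% (2.98 to 6.38), was about that of the Slc6a13-low wells.

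Within the sets both genes kept this side. The log2 ratio of Slc6a13-high over Slc6a13-low wells for Aldh1a1 was 3.80 within 1025s_182s, 1.86 within 600s_182s and 4.93 within 613s. For Aldh1a2 the ratios, taken in that order of sets, were 4.96, 7.14 and 5.22. The sets differ in their make-up, with 21 Slc6a13-high and 7 Slc6a13-low wells in 600s_182s, 10 Slc6a13-high and 45 Slc6a13-low wells in 1025s_182s, and 8 Slc6a13-high and 40 Slc6a13-low wells in 613s. In set 613s a single well held 79.7% of the Aldh1a1 reads and 91.7% of the Aldh1a2 reads of the Slc6a13-high side.

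Outside the fibroblasts Aldh1a1 reached 10 CPM in 30 of 66 vessel and 200 of 628 oligodendrocyte lineage wells, and Aldh1a2 in 6 of 66 vessel and 19 of 628 oligodendrocyte lineage wells. In the fibroblast class Aldh1a1 reached 10 CPM in 49 of 131 wells (37.4%), against 45.5% of vessel and 31.8% of oligodendrocyte lineage wells. Its median well was lowest in the fibroblast class, at 1.10 CPM, against 3.26 CPM in vessel and 4.30 CPM in oligodendrocyte lineage wells. The pooled level of Aldh1a1 went the other way, at 210 CPM in fibroblast, 116 CPM in vessel and 69.8 CPM in oligodendrocyte lineage wells. The log2 ratios were 0.85 (not called) over vessel and 1.57 over oligodendrocyte lineage wells. The vessel level rested in part on 1 well with 33.4% of the reads. Within the oligodendrocyte lineage it was 150 CPM in 206 precursor (OPC) wells, 8.89 CPM in 76 committed precursor (COP) wells and 46.2 CPM in 303 mature wells. Aldh1a2 in turn stood at 139 CPM in fibroblast wells, against 15.2 CPM in vessel and 0.590 CPM in oligodendrocyte lineage wells. In the vessel class 1 well held 48.0% of the Aldh1a2 reads, and the level without it was 7.98 CPM. Its log2 ratios were 3.11 over vessel and 6.46 over oligodendrocyte lineage wells. Reads of Aldh1a1 and of its near-identical neighbour Aldh1a7 may be shared; Aldh1a7 had 0.103 CPM in fibroblast wells and 11.7 CPM in vessel wells.

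Aldh1a3, the remaining dehydrogenase, was rare. It reached 10 CPM in 5 of 131 fibroblast wells, 1 of 66 vessel wells and 10 of 628 oligodendrocyte lineage wells. The pooled level was 16.9 CPM in fibroblast, 2.24 CPM in vessel and 0.761 CPM in oligodendrocyte lineage wells, log2 ratios of 2.47 over vessel and 3.35 over oligodendrocyte lineage wells. The fibroblast level came to 95.7% from 2 wells, both on the Slc6a13-low side, with 1123 CPM in the higher one. The levels were 1.08 CPM in Slc6a13-high and 21.3 CPM in Slc6a13-low wells. Their log2 ratio, -3.42, rests on these wells, and without set 1025s_182s it was 0.55. With the fibroblast gate alone Aldh1a3 had 0 CPM in 13 Slc6a13-high wells and 13.0 CPM in 38 Slc6a13-low wells. There 1 Slc6a13-low well held 98.4% of the reads.

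**Figure D2:**
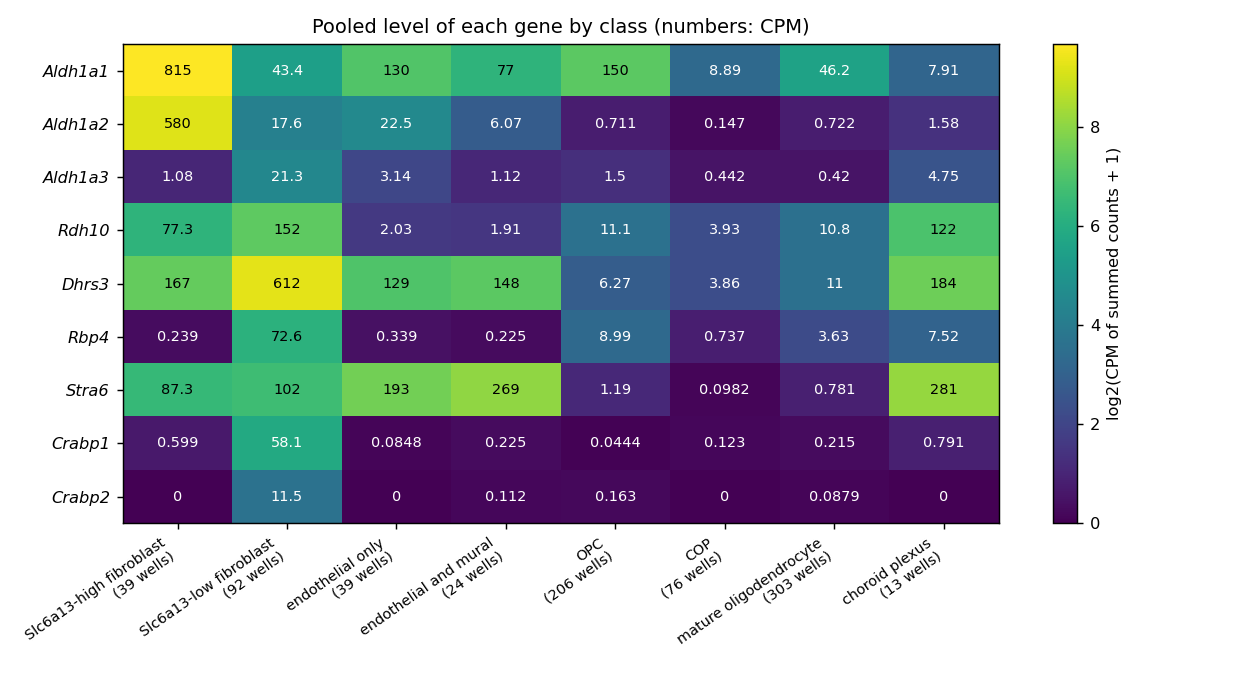
Rows are the 9 genes, columns the classes with their numbers of wells, and each cell gives the CPM of the summed counts, coloured as log2(CPM + 1). Along their rows Aldh1a1 (815 CPM) and Aldh1a2 (580 CPM) are highest in Slc6a13-high wells, Dhrs3 (612 CPM) in Slc6a13-low wells and Stra6 (281 CPM) in choroid plexus wells. OPC and COP are precursors and committed precursors of oligodendrocytes.

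The retinaldehyde reductase Dhrs3 lay on the other side. Its wells ranged from 0 to 3502 CPM with a median of 0 on the Slc6a13-high side, and from 0 to 2045 CPM with a median of 364 CPM on the Slc6a13-low side. Levels of 10 CPM or more were found in 15 of 39 Slc6a13-high and 79 of 92 Slc6a13-low wells. The pooled levels were 167 CPM (158 to 176) in Slc6a13-high and 612 CPM (603 to 621) in Slc6a13-low wells, a log2 ratio of -1.87. Of the Slc6a13-high reads 45.7% came from 1 well and 74.3% from 2, and the level without the highest well was 108 CPM. By set the ratio was -1.37 in 1025s_182s, -5.15 in 600s_182s and -1.17 in 613s, where the median over all genes was -0.35, 0.65 and -1.10 in the same order. The Dhrs3 ratio in 613s was thus close to that of the median gene, and there 1 well held 91.4% of the Slc6a13-high reads. In 600s_182s all the Dhrs3 reads of the 7 Slc6a13-low wells came from 1 well. Among wells that passed the fibroblast gate alone the levels were 171 CPM on the high side, of which 1 well held 93.1% of the reads (17.6 CPM without it), and 789 CPM on the low side.

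Over all fibroblast wells Dhrs3 stood at 516 CPM, or 176 CPM per 1000 exon bases, the highest level per length of the 9 genes. In vessel wells it had 135 CPM, at 10 CPM or more in 40 of 66 wells, and in oligodendrocyte lineage wells 7.78 CPM. The log2 ratios were 1.92 over vessel and 5.88 over oligodendrocyte lineage wells. Per 1000 exon bases the order of levels differed between the fibroblast sides. In Slc6a13-high wells Aldh1a2 led with 256 CPM per 1000 bases, ahead of Aldh1a1 with 165 and Dhrs3 with 57.1. In Slc6a13-low wells Dhrs3 led with 209 CPM per 1000 bases, ahead of Crabp1 with 72.4, Rbp4 with 54.0 and Rdh10 with 36.6.

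The retinol dehydrogenase Rdh10, which makes the retinaldehyde that the dehydrogenases use, had larger ratios to the other classes than between the fibroblast sides. It stood at 136 CPM in fibroblast wells, against 1.95 CPM in vessel and 10.4 CPM in oligodendrocyte lineage wells, log2 ratios of 5.54 over vessel and 3.59 over oligodendrocyte lineage wells. At 10 CPM or more it was seen in 52 of 131 fibroblast, 4 of 66 vessel and 56 of 628 oligodendrocyte lineage wells. The fibroblast sides had 77.3 CPM in Slc6a13-high and 152 CPM in Slc6a13-low wells, a log2 ratio of -0.97 that was not called. The sets went in different directions, with -1.16 in 1025s_182s, 3.09 in 600s_182s and -4.44 in 613s. With the fibroblast gate alone Rdh10 had 92.8 CPM in 13 Slc6a13-high wells, 62.8% of the reads from 1 well, and 126 CPM in 38 Slc6a13-low wells. The choroid plexus wells had 122 CPM, with 12 of 13 wells at 10 CPM or more.

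**Figure D3:**
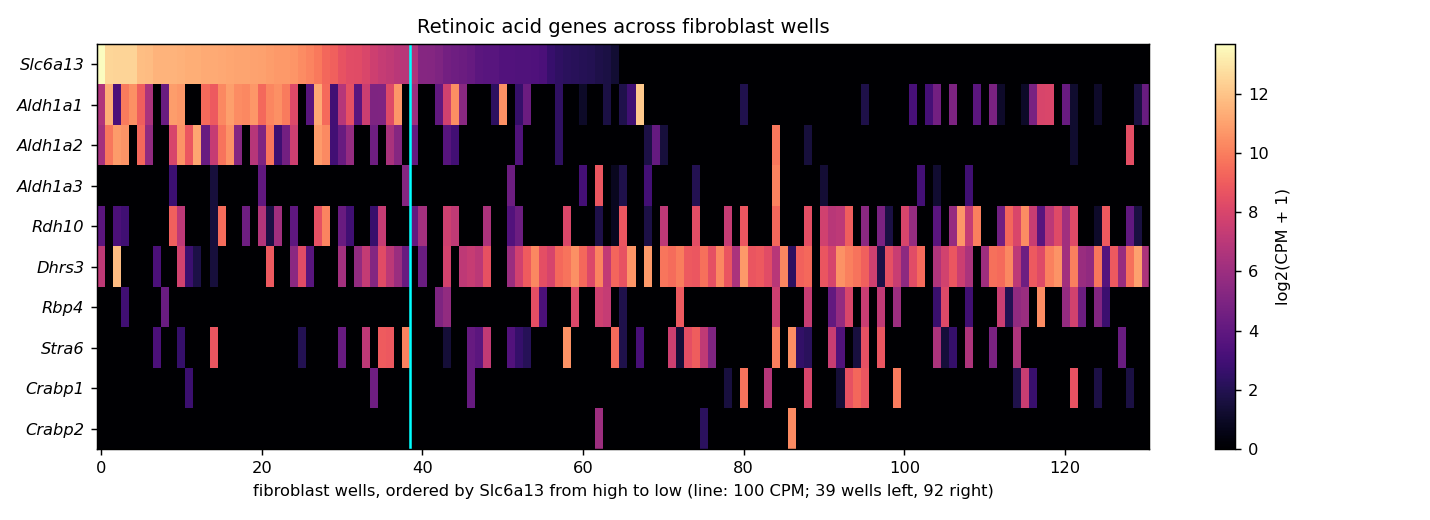
Columns are the 131 fibroblast wells ordered by Slc6a13 from high to low, rows are Slc6a13 and the 9 genes, and colour is log2(CPM + 1). The line marks 100 CPM of Slc6a13, with 39 wells to its left, where Aldh1a1 and Aldh1a2 are frequent, and 92 to its right, where Dhrs3 is present in 79 at 10 CPM or more. Slc6a13 set the order.

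The plot of fibroblast wells shows how the genes met in single wells. Aldh1a1 and Aldh1a2 were both at 10 CPM or more in 26 wells, Aldh1a1 alone in 23 and Aldh1a2 alone in 7. Spearman's rho between them was 0.54 over the 131 wells, within the Slc6a13-high side 0.39 and within the Slc6a13-low side 0.13. Aldh1a1 and Dhrs3 met in 23 wells, and their rho was -0.48. Many of these wells had passed a second gate. Among the 51 wells that passed the fibroblast gate alone, Aldh1a1 and Dhrs3 met in 2, with a rho of -0.37. There Aldh1a1 and Aldh1a2 met in 10 wells, with Aldh1a1 alone in 1, Aldh1a2 alone in 3 and a rho of 0.57. All 11 wells with Crabp1 at 10 CPM or more also had Dhrs3, as did 94 of all 131 fibroblast wells. On the Slc6a13-low side, which held 10 of the Crabp1 wells, 79 of 92 wells had Dhrs3, and the rho was 0.22. These correlations describe wells of 1 sample that share depth and source, and they contain the contrast of the sides. At least one of the 3 dehydrogenases was at 10 CPM in 36 of 39 Slc6a13-high and 23 of 92 Slc6a13-low wells. A dehydrogenase without Dhrs3 was seen in 22 Slc6a13-high and 7 Slc6a13-low wells. Dhrs3 without a dehydrogenase was seen in 1 Slc6a13-high and 63 Slc6a13-low wells. Of the 51 wells of the fibroblast gate alone, 11 had a dehydrogenase without Dhrs3, 33 Dhrs3 without a dehydrogenase, and 4 had both. Wells with Rdh10 beside a dehydrogenase, the enzymes of both steps to retinoic acid, numbered 12 of 39 on the Slc6a13-high and 14 of 92 on the Slc6a13-low side.

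The binding and carrier genes lay with Dhrs3. Rbp4, the retinol carrier, ranged from 0 to 18.6 CPM in Slc6a13-high wells and from 0 to 1366 CPM in Slc6a13-low wells, with a median of 0 in both. It reached 10 CPM in 1 of 39 Slc6a13-high and 24 of 92 Slc6a13-low wells. The pooled levels were 0.239 CPM, from 2 reads, in Slc6a13-high and 72.6 CPM (69.6 to 75.7) in Slc6a13-low wells, a log2 ratio of -5.89. The ratio was -5.93 in set 1025s_182s and -6.55 in 613s, while in 600s_182s no Slc6a13-low well had a read and the ratio, 0.73, was under 10 CPM on both sides. Over all fibroblast wells Rbp4 had 57.0 CPM, against 0.285 CPM in vessel and 4.56 CPM in oligodendrocyte lineage wells, log2 ratios of 5.49 over vessel and 3.38 over oligodendrocyte lineage wells. The counting intervals of the Slc6a13-high wells (0.029 to 0.865) and the vessel wells (0.105 to 0.621) overlapped.

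Crabp1, which binds retinoic acid in the cytoplasm, ranged from 0 to 21.0 CPM in Slc6a13-high and from 0 to 964 CPM in Slc6a13-low wells. Wells at 10 CPM or more numbered 1 of 39 on the Slc6a13-high side and 10 of 92 on the Slc6a13-low side. The pooled levels were 0.599 CPM in Slc6a13-high and 58.1 CPM (55.4 to 60.9) in Slc6a13-low wells, a log2 ratio of -5.21. It was -5.98 in set 1025s_182s and -3.74 in 613s, and 600s_182s had no Crabp1 read in a fibroblast well. Over all fibroblast wells it had 45.7 CPM, against 0.143 CPM in vessel and 0.140 CPM in oligodendrocyte lineage wells. The counting intervals of the vessel and the oligodendrocyte lineage wells overlapped. The log2 ratios were 5.35 over vessel and 5.36 over oligodendrocyte lineage wells.

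Crabp2, which carries retinoic acid to its nuclear receptors, rested on single wells. In fibroblast wells it had 349 reads, of which 1 well held 92.0% and 2 wells 99.4%, and the level fell to 0.727 CPM without the first, against 9.01 CPM with it. Both wells were Slc6a13-low. The 39 Slc6a13-high wells had 0 reads, which allows up to 0.359 CPM, against 11.5 CPM in the Slc6a13-low wells. With the fibroblast gate alone the 38 Slc6a13-low wells had 24.5 CPM, of which 1 well held 92.5% of the reads. Vessel wells had 1 read and oligodendrocyte lineage wells 20.

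Stra6, the retinol receptor, was the gene of the 9 whose level was called lower in fibroblast wells than in vessel wells. The pooled levels were 98.6 CPM (95.5 to 102) in fibroblast wells, against 222 CPM (216 to 229) in vessel and 0.757 CPM in oligodendrocyte lineage wells, log2 ratios of -1.17 over vessel and 5.83 over oligodendrocyte lineage wells. Wells ranged from 0 to 1500 CPM with a median of 0 in the fibroblast class, and from 0 to 1967 CPM with a median of 11.0 CPM in the vessel class. At least 10 CPM was present in 27 of 131 fibroblast and 34 of 66 vessel wells. Without set 1025s_182s the log2 ratio over vessel wells was -0.71, under the 2-fold size. The choroid plexus wells had 281 CPM, the highest level of the classes shown, but 7 of these 13 wells also passed the endothelial gate.

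The Stra6 reads of the fibroblast class came mainly from wells that passed other gates as well. The 51 wells that passed the fibroblast gate alone had 23.5 CPM, at 10 CPM or more in 3 wells, and 4.58 CPM without the highest well. The 80 fibroblast wells that passed another gate too had 165 CPM, at 10 CPM or more in 24 wells. Of the 131 fibroblast wells 28 passed the endothelial gate and 12 the choroid plexus gate. All 6 endothelial markers were at 10 CPM or more in the pooled fibroblast wells, and their sum per well ran from 0 to 12257 CPM (median 184 CPM) in fibroblast wells, against 99.9 to 17171 CPM (median 8220 CPM) in vessel wells. The part of these cells in the Stra6 level was not tested. Between the fibroblast sides Stra6 had 87.3 CPM in Slc6a13-high and 102 CPM in Slc6a13-low wells, a log2 ratio of -0.22 that was not called. Among wells that passed the fibroblast gate alone it had 0.50 CPM, from 2 reads, in 13 Slc6a13-high wells and 30.0 CPM in 38 Slc6a13-low wells, a log2 ratio of -4.37. Of the reads of those Slc6a13-low wells 81.2% came from 1 well, and the level without it was 5.75 CPM.

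**Figure D4:**
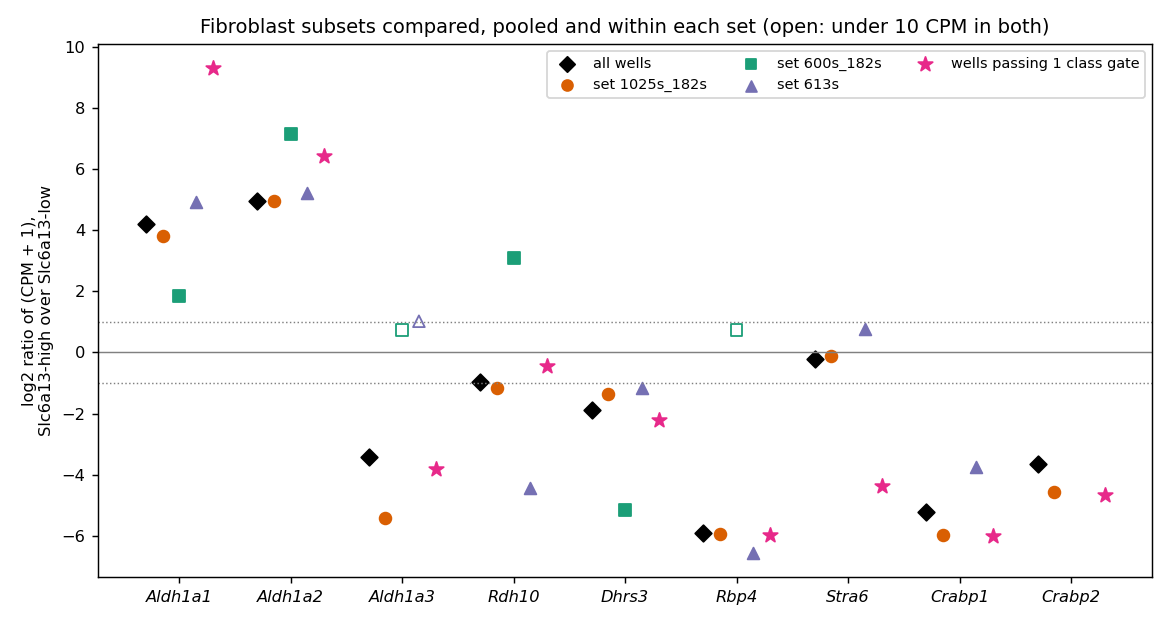
The y axis is the log2 ratio of (CPM + 1), Slc6a13-high over Slc6a13-low fibroblast wells, for each gene on the x axis. Points give all wells, each set of wells and the wells that passed 1 class gate, dotted lines mark 2-fold, and open points have under 10 CPM on both sides. Aldh1a1 and Aldh1a2 lie above the upper line and Dhrs3 below the lower line at every point, while Rdh10 is on both sides of 0.

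Counted together, 8 of the 9 genes reached 10 CPM in fibroblast or oligodendrocyte lineage wells, and all 8 were higher in fibroblast wells, with Crabp2 under that level. Over all 12515 genes measured in this comparison 22.8% were called higher and 22.0% lower. The median log2 ratio of the 8 genes was 4.47, beside -0.03 over all genes. Against vessel wells 6 of 8 measured genes were higher and 1, Stra6, lower, where 20.8% of 12055 genes were called higher and 18.6% lower. Their median log2 ratio was 2.79, beside -0.03 over all genes. Between Slc6a13-high and Slc6a13-low wells 2 of 9 were higher and 5 lower, where 17.2% of 11755 genes were called higher and 28.1% lower. The median over the 9 genes was -1.87, beside -0.21 over all genes. Within sets the fibroblast ratios over oligodendrocyte lineage wells were 6.76, 7.88 and 5.43 for Aldh1a2 in 1025s_182s, 600s_182s and 613s, 6.32, 3.42 and 4.91 for Dhrs3, 3.20, 3.28 and 4.20 for Rdh10, and 1.28, 3.20 and 1.60 for Aldh1a1. Rbp4, Crabp1 and Stra6 were higher in 1025s_182s (3.39, 5.93 and 6.13) and 613s (3.97, 4.51 and 5.66), but not in 600s_182s, whose 28 fibroblast wells held 2 Rbp4 reads and none of Crabp1 or Stra6. Over vessel wells, which could be compared in 1025s_182s and 613s, the ratios were 1.99 and 4.15 for Aldh1a2, 1.70 and 2.46 for Dhrs3, 5.26 and 5.76 for Rdh10, 5.37 and 5.90 for Rbp4, and 5.86 and 4.78 for Crabp1. Stra6 had -1.68 and -0.49, and Aldh1a1 0.72 and -0.06. The 3 comparisons share fibroblast wells and are not independent of each other.

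Markers of other cell types moved with the Slc6a13 split. The endothelial gate was passed by 10 of 39 Slc6a13-high and 18 of 92 Slc6a13-low wells, and the mature oligodendrocyte gate by 22 Slc6a13-high and 36 Slc6a13-low wells. All 8 mural markers were at 10 CPM or more on both sides, with a sum per well of 23.7 to 10809 CPM (median 2183 CPM) in Slc6a13-high and 0 to 10172 CPM (median 132 CPM) in Slc6a13-low wells. Of the 6 astrocyte markers, which include Gja1 and Slc1a3, 6 were at 10 CPM or more in Slc6a13-high and 4 in Slc6a13-low wells, and 0 were without reads. Their sum per well was 26.3 to 15991 CPM (median 814 CPM) in Slc6a13-high and 0 to 7051 CPM (median 76.0 CPM) in Slc6a13-low wells. Among wells that passed the fibroblast gate alone the median astrocyte sum was 789 CPM in Slc6a13-high and 20.0 CPM in Slc6a13-low wells, and the median mural sum was 3469.8 CPM in Slc6a13-high and 56.6 CPM in Slc6a13-low wells. Both differences in summed level thus remained, but the mural sum no longer came from the whole list. In these wells 3 of the 8 mural markers were at 10 CPM or more in Slc6a13-high and 4 in Slc6a13-low wells. Of the 6 astrocyte markers 5 were at 10 CPM or more in Slc6a13-high and 3 in Slc6a13-low wells. Choroid plexus markers went the other way, with 1 of 39 Slc6a13-high and 11 of 92 Slc6a13-low wells past their gate. Slc6a13-high wells had a median of 167127 reads and Slc6a13-low wells 314696. The part of these differences in the levels of the retinoic acid genes was not tested.

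Some genes that mark layers of the meninges were past 2-fold between the sides. Of all genes 17.2% were higher and 28.1% lower in Slc6a13-high wells. Of 6 genes of pial and arachnoid fibroblasts 4 were higher in Slc6a13-high wells and none lower over the pooled sets. Of the 5 measured in each set, 2 were higher and 0 lower in 1025s_182s, 2 higher and 1 lower in 600s_182s, and 3 higher and 1 lower in 613s. Their median log2 ratios were -0.09 in 1025s_182s, -0.0054 in 600s_182s and 1.32 in 613s. Those of all genes were -0.35, 0.65 and -1.10 in the same order, so the set counts cannot be read against the pooled shares. The genes higher over the pooled sets included Lama1, a laminin chain, at 983 CPM in Slc6a13-high and 117 CPM in Slc6a13-low wells. Another was S100a6, a calcium-binding protein, at 227 CPM in Slc6a13-high and 48.7 CPM in Slc6a13-low wells. The neurotrophin receptor Ngfr had 128 CPM in Slc6a13-high and 5.89 CPM in Slc6a13-low wells, and the ligand Wnt6 had 26.2 CPM in Slc6a13-high and 1.91 CPM in Slc6a13-low wells. The rest of this list was not called and leaned the other way. Col18a1 had 476 CPM in Slc6a13-high and 813 CPM in Slc6a13-low wells, and Angptl2 had 121 and 161 CPM. Of 4 genes linked to the dura none was higher and 2 were lower, namely Mgp at 285 CPM in Slc6a13-high and 1224 CPM in Slc6a13-low wells, and Fxyd5 at 171 CPM in Slc6a13-high and 365 CPM in Slc6a13-low wells. Not called were Foxp1, at 296 CPM in Slc6a13-high and 180 CPM in Slc6a13-low wells, and Smoc2, at 9.46 and 14.3 CPM. Of 3 measured arachnoid barrier genes 1 was lower, the transporter Slc47a1, with 0 CPM in Slc6a13-high and 12.6 CPM in Slc6a13-low wells. Klf5 (72.8 CPM in Slc6a13-high and 40.0 CPM in Slc6a13-low wells) and Dpp4 (18.7 and 15.2 CPM) were not called. With so few genes these counts cannot be set apart from the share of all genes that was lower.

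The other genes of the pathway were followed in a list of 43. It includes Ttr, a marker of the choroid plexus gate. Wells past that gate could stay in the fibroblast class but not in the vessel or oligodendrocyte lineage classes. Ttr counts among the genes higher over oligodendrocyte lineage wells (688 against 115 CPM) and lower between the sides. Between the fibroblast sides 25 genes of the list were measured, of which 2 were higher and 13 lower in Slc6a13-high wells, with a median log2 ratio of -1.03. Over all genes the shares were 17.2% higher and 28.1% lower, and the median ratio was -0.21. By set the list had 6 higher and 11 lower of 26 in 1025s_182s, and 6 higher and 7 lower of 22 in 600s_182s. In 613s it had 2 higher and 18 lower of 25. The median log2 ratios of the list were -0.61, -0.36 and -2.45 in that order of sets. Those of all genes were -0.35, 0.65 and -1.10. The background of all genes thus differed by set, and the set counts cannot be read against the pooled shares. Adh1, an alcohol dehydrogenase that oxidises retinol, had a median well of 3.69 CPM and a pooled level of 145 CPM in Slc6a13-high wells, against 1024 CPM and 1157 CPM in Slc6a13-low wells. Of the nuclear receptors of retinoic acid and their partners, Rara, Rarb and Rxra were lower in Slc6a13-high wells, while Rarg (51.4 CPM in Slc6a13-high and 33.5 CPM in Slc6a13-low wells) and Rxrb (28.7 CPM in Slc6a13-high and 33.8 CPM in Slc6a13-low wells) were not called. Rara, the alpha receptor, had 12.0 CPM in Slc6a13-high and 66.1 CPM in Slc6a13-low wells, a log2 ratio of -2.37. Rarb, the beta receptor and itself a known target of retinoic acid, had 36.8 CPM in Slc6a13-high and 136 CPM in Slc6a13-low wells, a log2 ratio of -1.86. Their partner Rxra had 0.838 CPM in Slc6a13-high and 94.6 CPM in Slc6a13-low wells, the largest ratio of the list at -5.70.

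Among the rest of the list the reductase Dhrs4 had a log2 ratio of -2.22 and Lpl, a lipase that acts on lipoproteins, -1.93. Rarres1, a gene named for its response to retinoids, had 0 CPM in Slc6a13-high and 15.0 CPM in Slc6a13-low wells. Among the genes called higher was the transglutaminase Tgm2, a known retinoid-induced gene, with 676 CPM in Slc6a13-high and 222 CPM in Slc6a13-low wells. Rarb, Rarres2, Tgm2 and Adh1 share exon bases with other annotated genes, so their counts are uncertain to that extent.

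Over the other classes more genes of the list were higher than lower in fibroblast wells. Against oligodendrocyte lineage wells 15 of 25 measured genes were higher and 2 lower in fibroblast wells, with a median log2 ratio of 1.39, where 22.8% of all genes were higher and 22.0% lower. Among the largest were Adh1 at 7.17, Lpl at 5.17, Tgm2 at 4.17, Rarres2 at 3.76, Rarb at 3.65, Rarres1 at 3.05 and Rxra at 2.99. Those lower were Fabp5, a fatty acid binding protein that also carries retinoic acid, at -2.27, and Rdh11 at -1.03. Against vessel wells 10 of 27 were higher and 2 lower, where 20.8% of all genes were higher and 18.6% lower. Here the median of the list was 0.76, and that of all genes was -0.03 in both comparisons. Rarb led with 115 CPM in fibroblast and 1.71 CPM in vessel wells, a log2 ratio of 5.41, followed by Lpl at 4.20, Rarres1 at 3.67, Adh1 at 3.31, Rxra at 2.38 and Rarres2 at 2.24. The genes lower in fibroblast wells were Aldh1a7 at -3.52 and Cyp26b1, an enzyme that degrades retinoic acid, with 3.82 CPM in fibroblast and 14.5 CPM in vessel wells.

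Genes whose pattern was nearest to each member's were ranked by Pearson's r of log2(CPM + 1) over the 131 fibroblast wells, among 10910 genes. For Aldh1a2 they were Slc6a13 (0.69), Aldh1a1 (0.58) and Slc1a3 (0.55), and for Aldh1a1 they included Slc6a13 (0.68) and Vtn (0.66). Slc6a13 and Vtn were used by the split or a gate. For Dhrs3 they were the phosphatase gene Alpl (0.67), Moxd1 (0.67) and Coch (0.64). Within the sets these were lower for most: Alpl had 0.41 in 1025s_182s, 0.47 in 600s_182s and 0.27 in 613s, Moxd1 0.43, 0.47 and 0.30, and Coch 0.30, 0.73 and 0.33 in the same order. For Stra6 they were Paqr5 (0.63), the bicarbonate transporter Slc4a10 (0.60) and Cmtm8 (0.58), and for Crabp1 Plcd1 (0.51), Sct (0.45) and Ccdc68 (0.45). For Rdh10 (Zbed6 0.41, Syap1 0.39 and Set 0.37) and Rbp4 (1810049J17Rik 0.40, Kiss1r 0.38 and P4ha2 0.38) no gene went above 0.41. In 600s_182s, whose Slc6a13-low wells had no Rbp4 read, the r of the Rbp4 neighbours was -0.05, -0.07 and -0.12. Each r is the highest of many, over wells that share a source.

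Promoter sequence is given for genes on either side of the split, since their levels go in opposite directions there. RefSeq windows (GRCm38.p6) were found for 6 of the 9 genes, and where a gene had several the window nearest the start of its GENCODE gene was taken. Rarb had a single window, on chromosome 14 with its RefSeq start at 16575476, which lies inside the GENCODE gene (16430839 to 16819156, minus strand). The 250 bases before the start were searched on both strands for AGGTCA, for its variant AGTTCA, for the form GGGTCA and for the form GGTTCA, which are half-sites of retinoic acid response elements and are shown in capitals where they occur. On the Slc6a13-high side are the dehydrogenase genes Aldh1a1 and Aldh1a2, and on the low side Dhrs3, Rbp4, Crabp1 and the receptor gene Rarb.
Aldh1a1, chr19:20492333-20492582, plus strand: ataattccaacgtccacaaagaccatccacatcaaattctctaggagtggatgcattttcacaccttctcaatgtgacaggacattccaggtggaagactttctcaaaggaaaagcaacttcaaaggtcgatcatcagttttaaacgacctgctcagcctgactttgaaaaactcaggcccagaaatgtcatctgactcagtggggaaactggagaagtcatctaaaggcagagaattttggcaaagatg
Aldh1a2, chr9:71215539-71215788, plus strand: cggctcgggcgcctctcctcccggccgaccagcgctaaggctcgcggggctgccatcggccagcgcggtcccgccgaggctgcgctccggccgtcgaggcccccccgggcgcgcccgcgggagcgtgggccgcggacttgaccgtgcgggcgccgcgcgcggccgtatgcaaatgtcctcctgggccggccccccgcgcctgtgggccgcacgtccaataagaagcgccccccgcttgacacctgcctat
Dhrs3, chr4:144892577-144892826, plus strand: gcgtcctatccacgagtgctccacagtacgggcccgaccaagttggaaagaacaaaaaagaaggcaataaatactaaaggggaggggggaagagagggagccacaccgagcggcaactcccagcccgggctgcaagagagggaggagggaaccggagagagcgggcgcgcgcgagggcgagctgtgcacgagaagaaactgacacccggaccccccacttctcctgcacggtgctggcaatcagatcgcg
Rbp4, chr19:38125322-38125571, minus strand: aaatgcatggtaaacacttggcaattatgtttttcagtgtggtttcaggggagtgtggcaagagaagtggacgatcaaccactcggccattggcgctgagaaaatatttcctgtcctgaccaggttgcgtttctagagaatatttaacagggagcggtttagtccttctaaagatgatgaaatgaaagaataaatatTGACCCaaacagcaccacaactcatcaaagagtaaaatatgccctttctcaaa
Crabp1, chr9:54764498-54764747, plus strand: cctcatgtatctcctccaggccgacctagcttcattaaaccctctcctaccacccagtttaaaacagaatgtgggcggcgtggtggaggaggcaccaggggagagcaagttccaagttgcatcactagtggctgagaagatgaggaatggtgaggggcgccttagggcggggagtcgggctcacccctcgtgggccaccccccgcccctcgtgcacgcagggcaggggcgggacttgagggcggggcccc
Rarb, chr14:16575477-16575726, minus strand: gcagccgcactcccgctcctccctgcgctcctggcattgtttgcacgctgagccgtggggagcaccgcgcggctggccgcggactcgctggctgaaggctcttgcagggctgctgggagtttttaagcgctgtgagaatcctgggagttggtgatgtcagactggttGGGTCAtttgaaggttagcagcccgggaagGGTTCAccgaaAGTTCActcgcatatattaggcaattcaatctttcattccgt

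The Rarb window held 3 half-sites, of which 2 form a direct repeat with 5 bases between them, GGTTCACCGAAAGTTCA, at -53 to -37 from that RefSeq start. A pair of half-sites in one direction with this spacing stood in 29 of 32851 promoter windows of this length, or 0.0883%. Among the 6 windows of the 9 genes Rbp4 alone held a half-site, a single GGGTCA on the opposite strand, and 38.6% of all windows hold at least one. The Stra6 window, not shown, has its RefSeq start at 58129088, inside the GENCODE gene (58063788 to 58153996, plus strand). The G and C content was 42.8% for Aldh1a1, 77.6% for Aldh1a2, 61.6% for Dhrs3, 40.8% for Rbp4 and 63.6% for Crabp1. These letters describe the windows only.

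All 9 genes are protein-coding in GENCODE vM21 on GRCm38, and none shares exon bases with another annotated gene. Aldh1a1 lies at chr19:20492715-20643465 (plus strand), Aldh1a2 at chr9:71215789-71296243 (plus), Aldh1a3 at chr7:66390890-66427517 (minus), Dhrs3 at chr4:144892827-144928209 (plus) and Rdh10 at chr1:16105774-16133734 (plus). Rbp4 lies at chr19:38116629-38125281 (minus), Crabp1 at chr9:54764748-54773110 (plus), Crabp2 at chr3:87948666-87953376 (plus) and Stra6 at chr9:58063788-58153996 (plus).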

How the data were processed

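The authors deposited whole-number counts of reads per gene and well, not normalized. Per the submitters' processing notes, reads were handled with TopHat2 2.1.1, with SAMtools 0.1.18 and with featureCounts (Subread 1.4.6-p5), on GRCm38 and mm10. Not given in the sources used here are the annotation, the strand setting and the treatment of multi-mapping reads. Libraries carry no molecular identifiers, so intervals and floors (3 counts) cover counting error only. No column was left unused.

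Wells under 50000 reads were removed (295, with 2.53% of reads). Kept wells had 50002 to 1451280 reads, median 279874. Each well took the first class passed in the order fibroblast, choroid plexus, vessel, oligodendrocyte lineage. Counts were summed per class, scaled to CPM and compared as log2 ratios over all genes (Python 3.11.15, NumPy 2.4.6, pandas 2.3.3, SciPy 1.17.1). The calculation was tested on simulated counts. No doublet caller was run on sorted wells.

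The members and lists were chosen with earlier results of these data known. The text names the 9 members, the 8 other retinoid genes with the largest ratios per comparison, layer genes past the call, and the 3 genes most like each member with at least 10 CPM in at least 10 fibroblast wells. Named outside this rule, after their values were seen, were Tgm2, Rarg and Rxrb between the fibroblast sides, Cyp26b1 over vessel wells, Fabp5 and Rdh11 over oligodendrocyte lineage wells, and Pdgfrb. Also outside it were Ttr and the uncalled layer genes Col18a1, Angptl2, Foxp1, Smoc2, Klf5 and Dpp4. A few genes that the rule selects are not reported here; counts and medians of the lists include them. Alternatives were other gates, splits, read minimums, pseudocounts and scalings, sets left out, and, added after seeing the data, leaving out the well with most reads.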

Additional observations from a re-analysis of the deposited data

Results flagged for a closer look

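The 295 wells with under 50000 reads, which entered no comparison, together held 7429132 reads and still carried 8 of the 9 genes above the limit that a count of 0 allows. Aldh1a2 stood at 171 CPM (161 to 180) there and Aldh1a1 at 124 CPM (116 to 132). Dhrs3 had 68.8 CPM, Stra6 11.7 CPM, Rdh10 9.96 CPM and Rbp4 5.38 CPM. Aldh1a3 had 1.48 CPM and Crabp1 1.35 CPM. The limit was 0.404 CPM. The classes of these wells were not analysed here.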

How the results depend on the processing

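Across 16 alternatives against oligodendrocyte lineage wells, 15 against vessel wells and 18 between the fibroblast sides, Aldh1a2 and Dhrs3 stayed past 2-fold in the direction first given in all 3 comparisons. Their ranges between the sides were 4.74 to 7.14 for Aldh1a2 and -5.15 to -1.17 for Dhrs3, and that of Aldh1a1 was 1.86 to 9.30. Of 441 alternative member values 10 turned the direction of a called ratio. Ratios that were not called changed sign as well, among them Rdh10 (up to 3.09) and Stra6 (up to 0.76) between the sides, Aldh1a1 over vessel wells (down to -0.06) and Crabp2 over oligodendrocyte lineage wells (down to -0.13). In set 600s_182s alone, with 28 fibroblast wells, the log2 ratios over oligodendrocyte lineage wells were -0.51 for Aldh1a3, -2.04 for Rbp4, -0.037 for Crabp1 and -0.60 for Stra6. There all 4 measured members were called higher. Of the 12143 genes measured 4986 were lower, with a median log2 ratio of -0.52. Over vessel wells Aldh1a3 was at -1.12 without set 1025s_182s and -1.06 in 613s alone, settings in which 0 members were lower. Between the sides Aldh1a3 was at 0.55 without 1025s_182s, 0.73 in 600s_182s alone and 1.02 in 613s alone, and Rbp4 at 0.73 in 600s_182s alone. In 600s_182s alone 3 of 4 measured members were higher and 1 lower, and 4535 of 9949 genes were higher. In 613s alone 5748 of 11149 genes were lower. With no CPM minimum 3921 genes were higher over vessel wells and 5162 lower between the sides. The causes were not tested. Scaling by median-of-ratios size factors moved every log2 ratio by -0.13 over oligodendrocyte lineage wells, 0.03 over vessel wells and 0.14 between the sides. Set 600s_182s alone was not run against its 3 vessel wells. Of the fibroblast reads 1 well held 92.0% for Crabp2 and 2 wells held 95.7% for Aldh1a3. No paired analysis was possible because the labels give wells no shared replicate number and no test was made.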
